A study of Mus musculus with 2 samples.

Results

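Cyclin-dependent kinase (CDK) inhibitors and arrest genes of the p53 pathway were examined in mouse cells labelled as lymphoma. The set was given as 10 genes, Cdkn1a, Cdkn1b, Cdkn1c, Cdkn2a, Cdkn2b, Cdkn2c, Cdkn2d, Trp53, Mdm2 and Gadd45a. It was read from all probe sets (groups of array probes for a transcript) annotated with exactly 1 of these symbols. That gave 13 probe sets for 9 genes, of 18194 genes named on the array. Trp53 itself, the gene of the p53 transcription factor, was not analysed here. The co-culture group is 1 array of total RNA from lymphoma cells grown together with endothelial cells, which form the lining of blood vessels. The serum group is 1 array from lymphoma cells in serum-containing medium. The labels give no lymphoma line or strain, no genotype, no source of the endothelial cells and no culture time. They also do not say whether the cells were separated before RNA was taken, or which medium the co-culture had. The comparison asks how gene expression in the lymphoma cells differs with endothelial co-culture. If the co-culture lacked serum, the absence of serum and the presence of endothelial cells cannot be told apart.

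CDKs drive cells through the division cycle when they are bound to cyclins, and their inhibitors stop that drive. The CIP/KIP inhibitors (Cdkn1a, Cdkn1b, Cdkn1c) bind complexes of several CDKs, whereas the INK4 inhibitors (products of Cdkn2a, Cdkn2b, Cdkn2c and Cdkn2d) bind Cdk4 and Cdk6 and so keep the retinoblastoma protein active. After DNA damage, p53 switches on Cdkn1a, Gadd45a and Mdm2, and the Mdm2 protein in turn marks p53 for destruction. Cdkn2a also encodes, in another reading frame, the ARF protein, which blocks Mdm2. In lymphomas the Cdkn2a locus and p53 are among the genes known to be lost or mutated.

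The values are linear array intensities, and log2 differences run co-culture minus serum. Intensities below 44.3, the median of all values of both arrays, were raised to that floor before log2 was taken, and a gene took the values of its brightest probe set. A gene was called measured when that probe set exceeded the floor in co-culture, in serum or in both, and higher or lower at a 2-fold difference, a log2 difference of 1 in size. Each group has 1 array, so the groups cannot be tested against each other, no culture-to-culture spread is known, and the number of arrays limits the precision. The error given is that between measured probe sets of the same gene, whose log2 differences had a within-gene SD of 0.60 over 5480 genes. It covers probe error only, not cultures and not what a whole array shares, such as its hybridisation or scaling. A difference larger than this SD may still lie within the spread between arrays or cultures, which is not known. Both arrays held 45101 probe sets, of which 52.7% on the co-culture array and 47.3% on the serum array lay above the floor.

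The label was checked against markers. Of 15 pan-leukocyte genes, 11 stayed below the floor in both cultures, and the brightest of the list reached 125 in co-culture and 139 in serum. Ptprc, the CD45 antigen of white blood cells, had 3.14 in co-culture and 21.5 in serum. Of 12 B-lineage genes with a probe set, 7 were below the floor on both arrays, with at most 126 in co-culture and 161 in serum. The defining leukocyte markers were thus absent or near background, against the label, and the arrays are named below by their labels only. The endothelial list had 15 of 18 genes below the floor on both arrays, among them Pecam1 (18.4 in co-culture and 21.3 in serum) and Cdh5 (44.1 in co-culture and 19.6 in serum), the adhesion molecules of that cell type. Its summed intensity was 993 in co-culture and 835 in serum, most of it from Egfl7. The T and NK list had 9 of 10 genes below the floor on both arrays and a summed intensity of 219 in co-culture and 143 in serum. The macrophage list had 7 of 10 below, with sums of 351 in co-culture and 200.04 in serum. The fibroblast and mural list had 6 of 11 below, with 499 in co-culture and 393 in serum, and the epithelial list had 6 of 11 below, with 635 in co-culture and 588 in serum. The 3′ to 5′ intensity ratio, a sign of RNA length, also differed. It was 2.05 in co-culture and 3.56 in serum for beta-actin, 1.88 in co-culture and 2.54 in serum for Gapdh, and 5.03 in co-culture and 13.2 in serum for Tfrc. The part of these gaps in the differences below was not tested.

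Of the 9 genes, all of them measured, 3 differed by at least 2-fold, as did 14.5% of all measured genes. Cdkn1a was higher in co-culture, and Cdkn2c and Gadd45a were lower. The promoter windows of these 3 genes are shown here to set the letters around their starts beside the array values. Each holds 250 bases before and 50 after a RefSeq transcript start in GRCm38.p6, read along the gene's strand, and Cdkn1a and Cdkn2c have 2 starts each. The Cdkn1a windows lie at chr17:29090729-29091028 and chr17:29093519-29093818 on the plus strand. Those of Cdkn2c lie at chr4:109666707-109667006 and chr4:109665323-109665622, and that of Gadd45a at chr6:67037358-67037657, all on the minus strand. Capitals in the Cdkn1a upstream window mark a match to the p53 response element consensus, and capitals in the other windows mark GGGCGG, the core of the box bound by Sp1, on either strand.
Cdkn1a upstream start: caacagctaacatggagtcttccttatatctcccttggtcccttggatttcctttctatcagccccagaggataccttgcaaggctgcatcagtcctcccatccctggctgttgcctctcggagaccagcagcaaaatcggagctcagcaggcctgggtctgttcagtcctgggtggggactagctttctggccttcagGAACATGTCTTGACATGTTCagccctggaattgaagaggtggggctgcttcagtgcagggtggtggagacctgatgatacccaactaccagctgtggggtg
Cdkn1a downstream start: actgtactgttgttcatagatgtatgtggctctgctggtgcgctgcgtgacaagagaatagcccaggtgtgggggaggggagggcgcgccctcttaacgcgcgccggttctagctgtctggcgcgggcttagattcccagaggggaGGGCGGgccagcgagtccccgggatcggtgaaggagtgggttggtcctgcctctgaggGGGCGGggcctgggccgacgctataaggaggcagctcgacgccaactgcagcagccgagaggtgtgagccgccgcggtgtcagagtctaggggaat
Cdkn2c upstream start: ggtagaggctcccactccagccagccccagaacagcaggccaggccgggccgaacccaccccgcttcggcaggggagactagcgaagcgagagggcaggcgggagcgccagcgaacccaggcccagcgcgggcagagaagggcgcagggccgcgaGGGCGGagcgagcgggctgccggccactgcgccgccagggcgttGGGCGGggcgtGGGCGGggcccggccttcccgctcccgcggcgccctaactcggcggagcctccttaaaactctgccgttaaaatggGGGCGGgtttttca
Cdkn2c downstream start: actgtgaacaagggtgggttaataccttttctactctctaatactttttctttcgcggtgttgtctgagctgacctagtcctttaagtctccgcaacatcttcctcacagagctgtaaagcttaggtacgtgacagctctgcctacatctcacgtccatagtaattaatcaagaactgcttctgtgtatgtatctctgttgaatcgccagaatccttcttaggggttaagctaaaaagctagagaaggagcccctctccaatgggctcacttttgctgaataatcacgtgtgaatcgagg
Gadd45a start: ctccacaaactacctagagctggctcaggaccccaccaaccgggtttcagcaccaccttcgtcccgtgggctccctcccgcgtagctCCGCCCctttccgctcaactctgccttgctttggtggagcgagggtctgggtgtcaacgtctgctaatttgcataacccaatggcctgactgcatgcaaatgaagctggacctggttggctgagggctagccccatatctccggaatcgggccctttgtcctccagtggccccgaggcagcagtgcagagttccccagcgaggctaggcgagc
The match in the upstream Cdkn1a window, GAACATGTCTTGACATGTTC, begins at position -51, with the transcript start at 0. The search took the consensus of 20 letters without a spacer, on both strands, and allowed 1 mismatch, a rule settled after this window had been read. Of 11 windows found for 8 of the 9 genes, 1 held it, against 0.0883% of 32851 windows of that length over all genes. GGGCGG stood in 9 of the 11 windows, against 35.7% of all windows, and TATAAA in 0 of 11, against 13.6%. The motifs searched did not overlap in the windows shown. A match describes letters and is not a measured binding site, and the arrays do not say which start was used. Sequence outside these 250 bases before and 50 after a start was not searched. A window without a match, as for Gadd45a and Mdm2, thus does not show that the gene lacks a p53 element. Cdkn1c has no window here.

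Cdkn1a, which encodes p21, the CIP/KIP inhibitor that p53 induces, was higher in co-culture by both of its probe sets. The brighter one had an intensity of 4727 in co-culture and 1390 in serum, a 3.40-fold difference (log2 difference 1.77). The other one, of the kind that detects several transcripts of a gene, had 871 in co-culture and 302 in serum, or 2.88-fold (1.53 on the log2 scale). The probe sets were thus 0.24 apart on the log2 scale, less than the within-gene SD of 0.60, and each differed between arrays by more than that SD. Of 11560 measured genes, 99 (Cdkn1a among them) had a difference as high or higher, which places it at percentile 99.2. In a mixed culture, more cells of a type and more RNA per cell cannot be told apart, and this holds for every value here.

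The other CIP/KIP genes did not reach 2-fold. Cdkn1b, the gene of p27, which restrains CDK2 in resting cells, had 2018 in co-culture and 2099 in serum by its brighter probe set, a log2 difference of -0.06. Its other probe set had 1076 in co-culture and 1057 in serum, a log2 difference of 0.03, so the arrays were nearly level at both. Cdkn1c, the imprinted gene of p57, had 126 in co-culture and 184 in serum (-0.55), a gap smaller than the within-gene SD. Within the CIP/KIP family, 1 of 3 genes was past 2-fold, as were 14.5% of all measured genes, and the signs were mixed. With 3 genes, this count says nothing particular to the family.

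**Figure D1:**
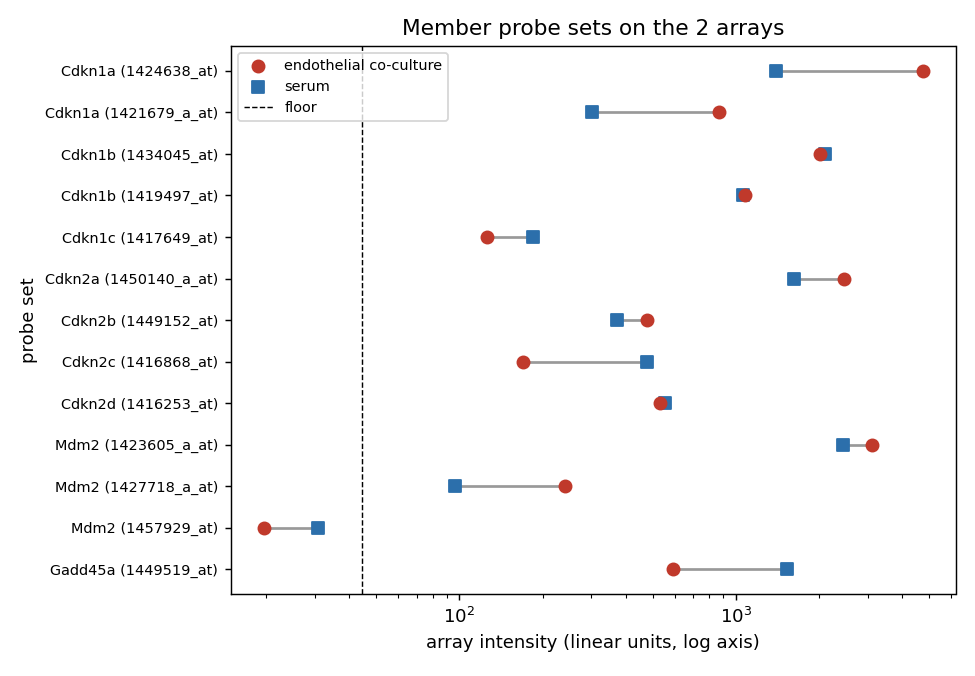
Intensity of each of the 13 probe sets of the 9 genes on the co-culture array (red circles) and the serum array (blue squares), on a log axis, with the floor of 44.3 as a dashed line. The circles of both Cdkn1a probe sets lie right of the squares, those of Cdkn2c and Gadd45a lie left, and 1 of 3 Mdm2 probe sets lies below the floor on both arrays. Levels of different probe sets cannot be compared.

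Among the INK4 genes, Cdkn2c was lower in co-culture and the others lay within 2-fold. Cdkn2c, the gene of p18, an inhibitor needed for plasma cell differentiation, had 170 in co-culture and 477 in serum, 2.81-fold lower (-1.49). It rests on a single probe set, and 456 of 11560 measured genes were as low or lower. Cdkn2d, the gene of p19Ink4d, had 533 in co-culture and 556 in serum (-0.06), which is nearly level.

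Cdkn2a and Cdkn2b, neighbours on chromosome 4 in the RefSeq annotation, were both somewhat higher in co-culture, within 2-fold. Cdkn2a had 2458 in co-culture and 1619 in serum (0.60, or 1.52-fold). Its probe set is of the kind that detects several transcripts of a gene, so its value does not separate p16Ink4a from ARF. Cdkn2b, the gene of p15, which transforming growth factor beta induces in epithelial cells, had 475 in co-culture and 371 in serum (0.36). The Cdkn2a difference was about as large as the within-gene SD and that of Cdkn2b was smaller. Both Cdkn2a and Cdkn1a, whose products restrain division, were well above the floor on both arrays.

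Mdm2, the ubiquitin ligase that removes p53 and is itself a p53 target, gave different sizes by different probe sets. The brightest one had 3096 in co-culture and 2431 in serum, a log2 difference of 0.35. A second one had 241 in co-culture and 96.2 in serum, 2.50-fold higher (1.32), and the third lay below the floor on both arrays (19.6 in co-culture and 30.8 in serum). Both measured probe sets were higher in co-culture, but they lay 0.97 apart on the log2 scale. That is more than the within-gene SD, which describes single probe sets about their gene's mean, and a gap between 2 spreads more widely. The gap is thus not shown to be unusual. Mdm2 was not called higher because its brightest probe set is within 2-fold.

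Gadd45a, a stress sensor that binds CDK1 and PCNA and acts at the G2 checkpoint, was lower in co-culture. Its only probe set had 592 in co-culture and 1533 in serum, 2.59-fold lower (-1.37), and 554 of 11560 measured genes were as low or lower. The p53 target Cdkn1a and the p53 target Gadd45a thus lay on opposite sides.

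The relatives of Gadd45a, taken from the list of other growth arrest genes, were higher in co-culture where Gadd45a was lower. Gadd45b, which is induced by stress and by transforming growth factor beta, had 4419 in co-culture and 694 in serum, 6.37-fold higher (2.67). Its other probe sets had 1389 in co-culture and 230.2 in serum (2.59), and 1238 in co-culture and 259 in serum (2.26), so all 3 were past 2-fold. Gadd45g, the third relative, had 1043 in co-culture and 521 in serum, just at the 2-fold limit. Over the processing settings, Gadd45b ran from 2.47 to 2.73. Gadd45g ran from 0.80 to 1.07 and was past 2-fold in 7 of the 9 settings that gave a value, so its sign held and its call did not.

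**Figure D2:**
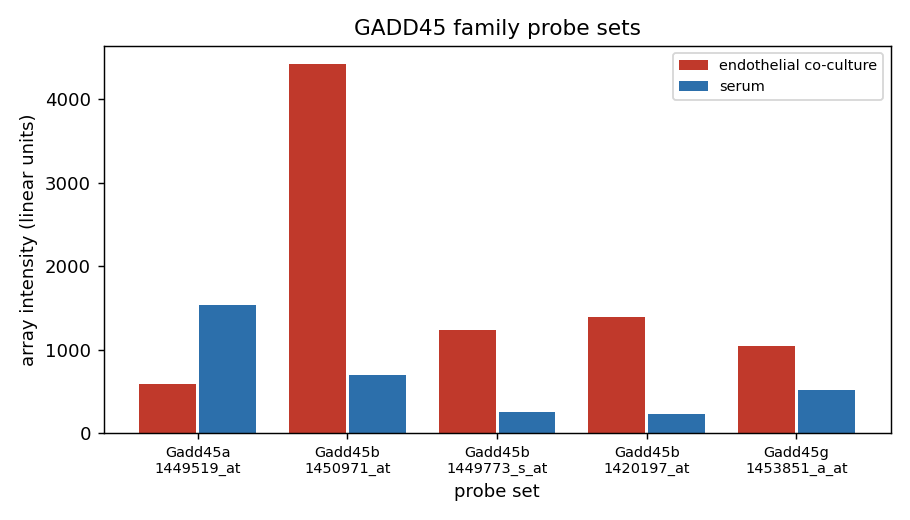
Linear array intensity of each GADD45 family probe set in co-culture (red) and serum (blue), with 1 array per bar and no error bar. The Gadd45a bar is shorter in co-culture (592) than in serum (1533), while the 3 Gadd45b probe sets and the Gadd45g probe set are taller in co-culture.

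Set against all genes, 1 of the 9 members was at least 2-fold higher, where 4.52% of 11560 measured genes were. At least 2-fold lower were 2 of the 9, where 9.97% of measured genes were, against which the 9 genes are few. Of all measured genes 523 were higher and 1152 lower as reported, and 325 were higher and 1590 lower when the arrays were scaled to the bacterial hybridisation spikes. With the floor at percentile 25 of all values the balance turned, to 2029 higher and 1599 lower. The median log2 difference of the members was -0.06, the same as the -0.06 of all measured genes, with 4 above 0 and 5 below. In a set of 9, each gene shifts such a share by a large step, so the counts say nothing particular to the set. What the members showed was a spread in both directions, from -1.49 to 1.77, with no common shift.

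**Figure D3:**
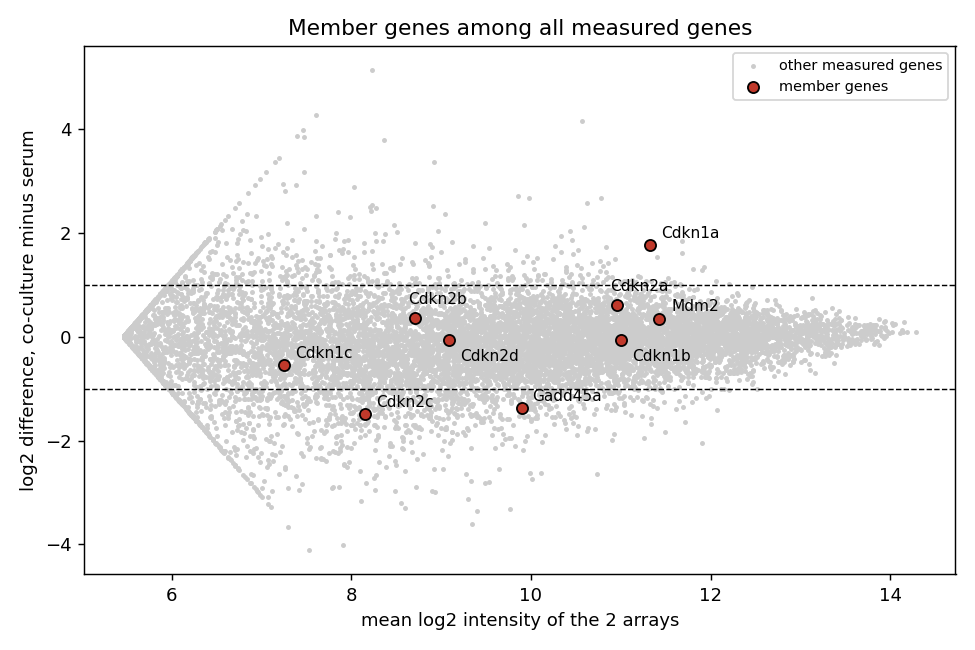
Log2 difference, co-culture minus serum, against the mean log2 intensity of the 2 arrays for all 11560 measured genes (grey) and the 9 members (red), with dashed lines at 2-fold. Cdkn1a lies above the upper line, Cdkn2c and Gadd45a lie below the lower line, and the other 6 lie between the lines.

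The genes nearest to each called member in the pair of log2 intensities, a likeness over only 2 arrays, were the following. For Cdkn1a the nearest was Cyp1b1, a cytochrome P450, with 4590 in co-culture and 1589 in serum, at a distance of 0.20. Cxxc5 and Polr2h came next at 0.46 each. For Cdkn2c the nearest were Mvp, Dipk1b and Ift172, at 0.015, 0.041 and 0.041. For Gadd45a they were Nrip1, Ehd2 and Mcoln1, at 0.046, 0.078 and 0.086. The Cdkn1a distances were the largest of the 3 genes.

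Of the listed p53 targets, Cdkn1a alone was at least 2-fold higher by the brightest probe set. Of 31 listed targets with a probe set 29 were measured, of which 1 was higher, 2 were lower and 26 lay within 2-fold, with a median of -0.13. Cdkn1a, Mdm2 and Gadd45a are among them. Without these 3, 0 of 26 were higher and 1 was lower, the death receptor gene Tnfrsf10b, which fell below the floor in co-culture (36.7) and had 117 in serum, at least 2.63-fold lower. Its difference was -0.70, within 2-fold, with the mean over probe sets. That mean counts probe sets below the floor on both arrays as level, and no other probe set of Tnfrsf10b was measured. The median of the 26 was -0.22, with 10 above 0 and 16 below. Ccng1, the gene of cyclin G1 and a sensitive p53 target, had 1556 in co-culture and 2331 in serum (-0.58), and its other measured probe sets ran from -1.70 to 0.35. The highest of the 26 was Plk3, a stress-responsive kinase gene, which reached 0.84 (112 in co-culture and 62.2 in serum) and was named after its value was seen. Aen, a nuclease gene likewise named, had 0.38 by its brightest probe set and from -0.14 to 1.52 by its 3 others. In the other direction, Sesn1, likewise named, had -0.58 by its brightest probe set and -1.76 and -1.51 by its 2 others. Counts for the lists that follow stand beside the same shares of all genes, 4.52% higher and 9.97% lower, and a median of -0.06.

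Regulators of p53 had 0 of 22 measured genes higher and 2 lower, with a median of -0.02. Hipk2, a kinase that phosphorylates p53, had 905 in co-culture and 3116 in serum, 3.44-fold lower, and all 6 of its other measured probe sets were lower as well (log2 differences from -2.06 to -0.26, and -0.97 for the mean over its probe sets). Atr, a kinase of the replication stress response, was 2.37-fold lower by its brightest probe set (961 in co-culture and 2281 in serum), but its other measured probe sets gave 0.94 and 1.19, and the mean over its probe sets was 0.29, so its direction is not settled. Mdm4, the partner of Mdm2, had 637 in co-culture and 760 in serum (-0.25), and 0.91 by another probe set.

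By their brightest probe sets, all 20 measured genes of the list of CDKs, cyclins and their direct regulators lay within 2-fold. Their median log2 difference was 0.02 and they ran in both directions, from -0.98 to 0.78. Cdk2, the main partner of p21 and p27, had 788 in co-culture and 458 in serum (0.78). Pkmyt1, which inhibits CDK1, had 135 in co-culture and 266 in serum (-0.98). Cdc25a, a phosphatase that activates CDK2 and was named after its values were seen, had 1796 in co-culture and 1636 in serum (0.13), but its other measured probe sets gave 1.13 and 1.85.

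The kinases that the INK4 proteins bind were also within 2-fold. Cdk4 had 8621 in co-culture and 9135 in serum (-0.08), with other probe sets at -0.55 and -0.15. Cdk6 had 4419 in co-culture and 4116 in serum (0.10), with other probe sets at 0.32 and 0.86. Among the D cyclins, the log2 differences were -0.04 for Ccnd1, 0.14 for Ccnd2 and -0.32 for Ccnd3, while other probe sets of Ccnd1 gave 0.66 and 0.96. Ccne1, the cyclin E1 that activates CDK2, had 4029 in co-culture and 2857 in serum (0.50). The inhibitor genes that differed, Cdkn1a and Cdkn2c, stood beside kinases and cyclins within 2-fold by their brightest probe sets.

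Downstream of the kinases, the RB and E2F list had 1 higher and 1 lower of 16 measured genes, with a median of 0.02. Lin9, of the complex that joins E2F and MYB control, had 1282 in co-culture and 606 in serum, 2.12-fold higher (0.61 by another probe set). Tfdp2, a dimer partner of E2F, was 2.30-fold lower (479 in co-culture and 1101 in serum), with -0.97 to -0.01 by its other probe sets. Rb1, the retinoblastoma gene, had 322 in co-culture and 422 in serum (-0.39), and E2f1, the S phase activator, had 733 in co-culture and 630.4 in serum (0.22).

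Genes for the turnover of the inhibitor proteins had 1 of 15 measured members higher and 0 lower, with a median of 0.25. Psme3, a proteasome activator that degrades p21, had 3983 in co-culture and 1949 in serum, 2.04-fold higher, but 0.17 by its other probe set. Skp2, the ubiquitin ligase subunit that recognises p27, had 3906 in co-culture and 2471 in serum (0.66), with other probe sets from 0.58 to 1.79. Cks1b, the cofactor of Skp2, had 11763 in co-culture and 9922 in serum (0.25).

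Regulators of the Cdkn2a locus had 1 of 19 measured genes higher and 1 lower, with a median of 0.02. Id1, which blocks factors that activate Cdkn2a, had 563 in co-culture and 114 in serum, 4.95-fold higher. Bcl6, a germinal centre repressor, had 381 in co-culture and 790 in serum, 2.07-fold lower. Bmi1, the Polycomb subunit that represses Cdkn2a, had 3072 in co-culture and 2586 in serum (0.25).

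The remaining list, of other growth arrest genes, had 2 of 20 measured members higher, the Gadd45 genes given above, and 4 lower, with a median of -0.15. Foxo1, a transcription factor of quiescence that activates Cdkn1b, had 213 in co-culture and 743 in serum, 3.49-fold lower, and -1.72 to -0.28 by its other probe sets. Foxo1 was within 2-fold without probe sets of shared sequence or several transcripts (-0.65) and with the floor at percentile 75 (-0.93). That floor lies above its co-culture intensity and so set the size of the second value. Ndrg1, a gene of stress and differentiation, had 1507 in co-culture and 4461 in serum, 2.96-fold lower, with other probe sets from -1.58 to 0.10. Gas2l1, a cytoskeletal growth arrest gene, was 2.37-fold lower (402 in co-culture and 953 in serum), but -0.19 by another probe set. Cdkn3, a phosphatase that acts on CDKs, had 767 in co-culture and 1602 in serum, 2.09-fold lower, but -0.99 after quantile normalization.

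Several of these list genes lost their call with the mean over probe sets, which gave 0.85 for Lin9, -0.59 for Tfdp2, 0.40 for Psme3, -0.87 for Ndrg1, -0.48 for Gas2l1 and -0.53 for Bcl6. That mean counts probe sets below the floor on both arrays as level, which draws a gene toward no difference. Bcl6 had no other measured probe set, so its -0.53 reflects such probe sets and not a second reading of the gene. Scaling to the spikes left Lin9 at 0.88 and Psme3 at 0.83. Subtraction of the median and quantile normalization left Bcl6 at -0.99 and -0.98. The floor at percentile 75 left Id1 at 0.53, a size set by that floor, which lies above its intensity in serum.

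**Figure D4:**
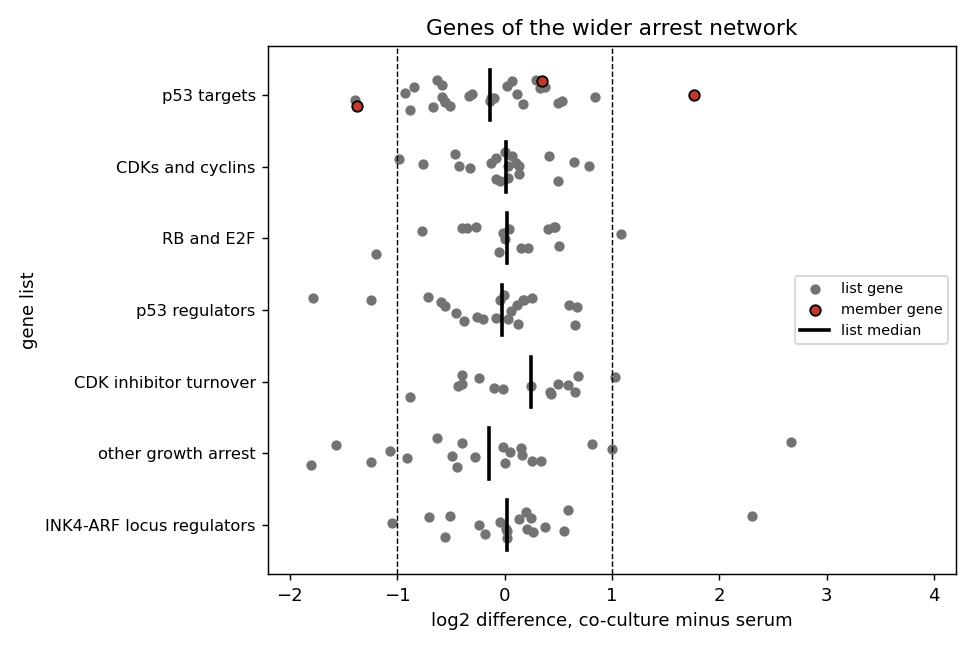
Log2 difference, co-culture minus serum, of each measured gene (points) in the 7 pathway lists, with list medians as black bars, members in red and dashed lines at 2-fold. The medians lie between -0.15 and 0.25, and the points farthest right are Gadd45b at 2.67 and Id1 at 2.31.

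The differences of the called members held under most processing settings. Over the reported setting and 9 alternatives, Cdkn1a ran from 1.57 to 1.83 and Gadd45a from -1.57 to -1.30, past 2-fold in all 10. Several of these settings could not move them. Gadd45a has a single probe set above every floor used, so the floors and the choice of probe sets returned the same -1.37. For Cdkn1a, the floors and the omission of shared-sequence probe sets returned the same 1.77. Cdkn2c ran from -1.69 to -0.29 and was past 2-fold in 9 of 10, the exception being a floor at percentile 75, which lies above its co-culture intensity. Scaling to the spikes moved the median of all genes from -0.06 to -0.26. Against that shift, Cdkn1a remained higher and Cdkn2c and Gadd45a remained lower.

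**Figure D5:**
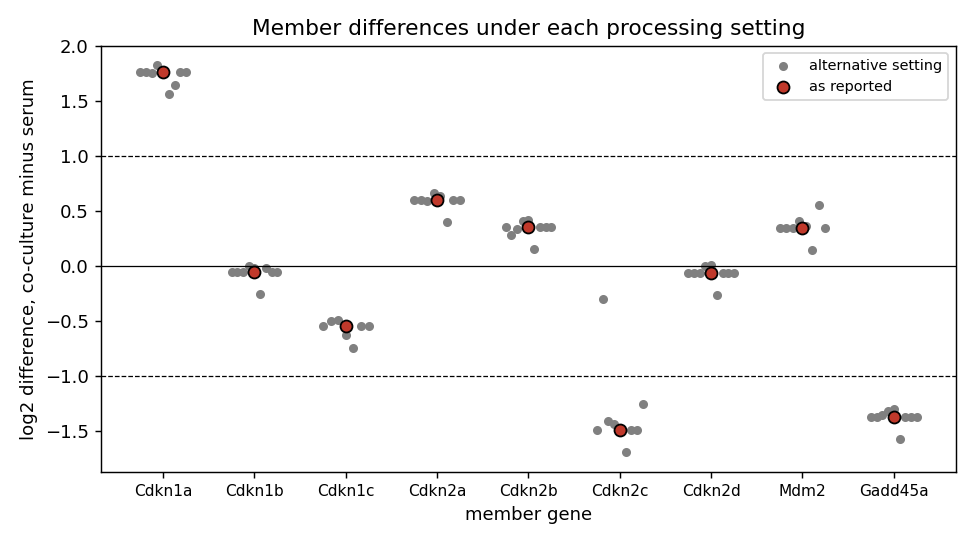
Log2 difference, co-culture minus serum, of each member as reported (red) and under each alternative processing setting that gave a value (grey), with dashed lines at 2-fold. Cdkn1a and Gadd45a stay outside the lines throughout, and 1 grey point of Cdkn2c lies inside at -0.29.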

How the data were processed

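Total RNA was column-purified, copied from a poly(A) primer and transcribed into biotin-labelled cRNA, per the labels' protocols. The deposited values are linear intensity per probe set, with no array software, background correction or normalization given in the sources used here. Leaving out the top and bottom 2% of values, both arrays averaged 500.003, while the medians were 50.7 in co-culture and 36.9 in serum.

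Of 45101 probe sets, 34958 had 1 gene symbol in the platform annotation and 932 had several, which named no gene. For 34754 of those with 1 symbol it was taken through the gene number from RefSeq. Promoter windows are RefSeq sequences (GRCm38.p6). Python 3.11.15, numpy 2.4.6 and pandas 2.3.3 were used.

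Members, lists and settings were chosen with earlier results of these data known. Named genes are all members, up to 4 called genes per direction of each list (or the 2 with the largest difference where none was called), 18 fixed partner and marker genes, and the 3 nearest genes to each called member. Plk3, Aen, Sesn1, Cdc25a and Egfl7 were named after their values were seen. The steps were tested on simulated data whose noise was smaller than the within-gene SD. That test checked the calculation and gives no rate of false calls for these arrays.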

Additional observations from a re-analysis of the deposited data

How the results depend on the processing

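The 9 alternatives changed the floor, the pseudocount, the scaling or the choice of probe sets. The mean over probe sets took in those below the floor on both arrays, counted as level. No called member changed sign. Of 566 values, 516 moved by less than the within-gene SD or, for counts, by no more than 1.5 times. They include values that a setting could not move, such as a bright single probe set under another floor. The cause of the other moves was not tested. Atr, a p53 regulator with probe sets in both directions, reversed to 0.29 with the mean over probe sets.

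With the floor at percentile 75 (389), Cdkn2c had -0.29, 1 member was lower, 1 p53 target was lower and 0 locus regulators were higher. With the floor at percentile 25 (12.8), 2 p53 targets were higher and 1 CDK or cyclin gene was lower. With the floor at 200, 1 p53 target was lower. The pseudocount of 16 left 1 other growth arrest gene higher. Subtraction of the median left 0 locus regulators lower. Quantile normalization also left 0 of these lower, and 1 CDK or cyclin gene lower. Spike scaling gave 5 p53 targets lower, 1 CDK or cyclin gene lower, 0 RB and E2F genes higher, 0 turnover genes higher and 1 lower, and 1 other growth arrest gene higher. The mean over probe sets gave 1 p53 target lower, 1 CDK or cyclin gene higher, 0 RB and E2F genes higher and 0 lower, 0 p53 regulators lower, 0 turnover genes higher, 2 other growth arrest genes lower and 0 locus regulators lower. Without probe sets of shared sequence, 4 p53 targets were lower, 2 turnover genes were higher and 0 locus regulators were higher. That setting also left out probe sets of the kind that detects several transcripts of a gene. Cdkn2a and Mdm2 had no value there, as their measured probe sets are of that kind.

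Over all genes, the counts were 2029 higher and 1599 lower at the floor of percentile 25, 143 and 397 at percentile 75, 218 and 656 at the floor of 200, 853 and 1203 with the pseudocount, 325 and 1590 with spike scaling, and 413 and 653 with the mean over probe sets, against 523 and 1152 as reported. The number of measured genes changes with the floor, so these counts are not shares of the same total. The list counts under each setting likewise stand without an all-gene share of that setting. No paired analysis was possible because each group has 1 array. Leaving out a replicate was not possible for the same reason. Dim values near the floor carry the least precision.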
